A study of Drosophila melanogaster with 6 samples.

Results

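The thioredoxin system and the enzyme that starts glutathione synthesis were examined as 10 named genes: the thioredoxins *Trx-2*, *TrxT* and *dhd*, the thioredoxin-like *Txl*, the reductases *Trxr-1* and *Trxr-2*, the peroxidase *PHGPx*, the glutamate-cysteine ligase subunits *Gclc* and *Gclm*, and the thiol reductase *GILT1*. Members were rows of the count table that carry these symbols, and all 10 were found among the 17433 genes listed. Nuclei came from eye imaginal discs of *Drosophila melanogaster* larvae late in the third instar, and 3 libraries per genotype were sequenced. Control libraries, titled WT, carried GMR-GAL4 and uas-EGFP::Msp300-KASH. The GMR>Rh-1G69D libraries carried the same 2 transgenes and uas-Rh-1G69D, a misfolding mutant of Rhodopsin-1 that is used to impose stress on the endoplasmic reticulum. *GMR-GAL4* acts in the eye disc behind the morphogenetic furrow, and nuclei that carried the EGFP tag were pulled down. Markers of other cell types were also detected, as given below. Each library was a separate pool of discs from many larvae. No untransformed line and no wild-type Rhodopsin-1 transgene was analysed here, so controls share the driver and the nuclear tag but carry no opsin transgene.

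Thioredoxins are small proteins that reduce disulfide bonds in other proteins, and thioredoxin reductase regenerates them with electrons from NADPH. Flies have no glutathione reductase, and thioredoxin reduces oxidized glutathione in its place, so both systems depend on the same reductase. Glutathione itself is made from glutamate, cysteine and glycine, and glutamate-cysteine ligase catalyses the step that limits its rate.

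Total counts per library ranged from 21773452 to 30884519. Rhodopsin-1 is encoded by *ninaE*, which had 63, 1222 and 65 counts in controls 1 to 3 and 3840, 3987 and 5115 in the GMR>Rh-1G69D libraries. These counts do not tell the transgene from the endogenous gene. The photoreceptor gene *Arr2* had 12, 299 and 21 counts in controls and 39, 121 and 24 in GMR>Rh-1G69D (it was named after its values were seen). Controls 2 and 3 stood apart from the others. Control 2 held 49 genes with at least 20 counts there and at most 2 in every other library, against 5 to 12 such genes elsewhere, and it had the highest summed level of 5 gut protease genes (54.9 CPM, counts scaled to the TMM-normalized library, against at most 0.137). Of 10 testis genes 6 were highest in control 2, and their sum there was 38.9 CPM against 5.10 to 14.3 elsewhere, of which *betaTub85D*, a tubulin of the testis, made up 27.2 CPM. The other 9 summed to 11.6 CPM in both control 1 and control 2 and to 4.25 to 7.08 CPM elsewhere (the gut and testis lists were chosen after values were seen). Control 3 had the highest summed level of 4 fat body genes, 667 CPM against 8.81 to 52.2, and of 5 salivary gland glue genes, 1063 CPM against 2.36 to 331. Of 9 eye disc markers all were detected, 5 were lower in GMR>Rh-1G69D and none was higher. The 4 antennal disc markers summed to 289 to 409 CPM per library, with 1 lower and 0 higher. The 4 retinal glia markers summed to 311 to 631 CPM per library, with 0 called in either direction. The 6 germline markers, of which 5 were tested, summed to 5.85 to 12.6 CPM per library, with 0 called in either direction. Of 5 hemocyte markers 1 was higher, with a summed level of 117 to 128 CPM in controls and 224 to 265 CPM in GMR>Rh-1G69D. The part of these tissues and markers in the values below was not tested. In such nuclear pools a change in the share of a cell type cannot be told apart from a change of RNA per nucleus. Values without controls 2 or 3 are given below for members that turn on them. For single genes outside the members, left-out values are given without control 3 only.

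Within controls the mean FPKM of the members detected there ran from 224 down to 1.11. FPKM are counts scaled by gene length and by library total, and only these compare genes with one another. *GILT1*, named after the mammalian lysosomal thiol reductase GILT, was the highest member, with an FPKM of 224 ± 72.1 (SD, n = 3) in controls, above 98.6% of the 11818 genes tested. *PHGPx*, which RefSeq calls *Gtpx*, encodes a glutathione peroxidase homologue that in flies draws its electrons from thioredoxin, and it stood at 106 ± 14.7. The main thioredoxin *Trx-2* followed at an FPKM of 47.1 ± 15.6, *Txl* at 43.5 ± 18.0 and *Trxr-1* at 32.3 ± 12.5. These 3 lay between the 83.4 and 89.3 percentiles of tested genes, and *Trxr-1* was the lowest of the 3 in every control, while *Trx-2* was above *Txl* in 2 of 3 controls, so the order of these 2 was not resolved.

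The glutathione-synthesis genes were at moderate levels. *Gclm*, the modifier subunit, had an FPKM of 8.77 ± 1.26 in controls and *Gclc*, the catalytic subunit, 6.44 ± 0.75, and *Gclm* was above *Gclc* in all 3 libraries of each genotype. The remaining members were scarce. *TrxT*, a thioredoxin known from the testis, stood at 1.47 ± 1.81, and *Trxr-2*, the other reductase gene, at 1.11 ± 0.55. *dhd*, a thioredoxin of the female germline that acts on sperm chromatin after fertilization, was at 0 in all controls. In GMR>Rh-1G69D the same genes held the first 7 places in the same order, and *Trxr-2* (0.78 ± 0.12) and *TrxT* (0.61 ± 0.20) had changed places with overlapping ranges.

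**Figure D1:**
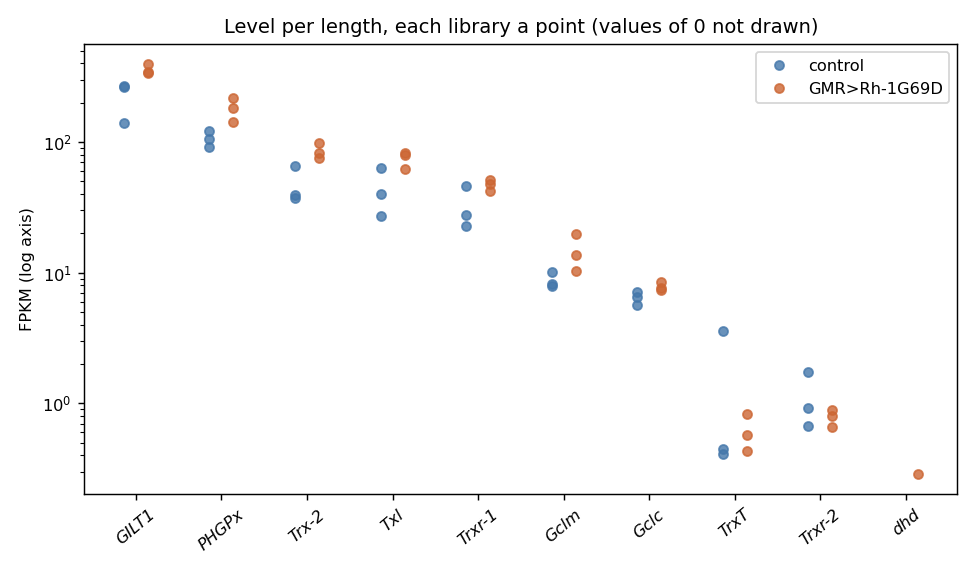
FPKM on a log axis for the 10 genes, ordered by their control mean, with 1 point per library (blue, control; orange, GMR>Rh-1G69D) and values of 0 left out. The points run from 393 for *GILT1* to 0.289 for *dhd*, which was above 0 in 1 library.

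The genotypes were compared on raw counts with edgeR's quasi-likelihood test, and p-values were adjusted (Benjamini-Hochberg) across 11818 genes. Of the 9 members with enough counts to test, 0 passed an adjusted p of 0.05, where 4.96% of all tested genes passed in either direction and 1.24% were called higher. At an unadjusted p under 0.05, 4 members were higher (*Trx-2*, *Txl*, *PHGPx* and *GILT1*) and none was lower, against 11.0% of all tested genes that were higher at that level. In 3 members, *Trx-2*, *PHGPx* and *GILT1*, all GMR>Rh-1G69D libraries lay above all controls, which was so for 13.6% of all tested genes. The fitted log2 fold change was above 0 in 7 of 9 members, with a median of 0.60 against 0.04 over all tested genes, of which 52.5% were above 0. DESeq2 called 2 members higher, *Trx-2* and *PHGPx*, where it called 3.87% of its genes higher. Without control 3 the edgeR test called 5 members higher, *Trx-2*, *Txl*, *Trxr-1*, *PHGPx* and *GILT1*. At that setting 10.7% of all genes were called higher as well. The test called 0 members without control 1 and 0 without control 2, where 56 and 54 of all genes were called higher.

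**Figure D2:**
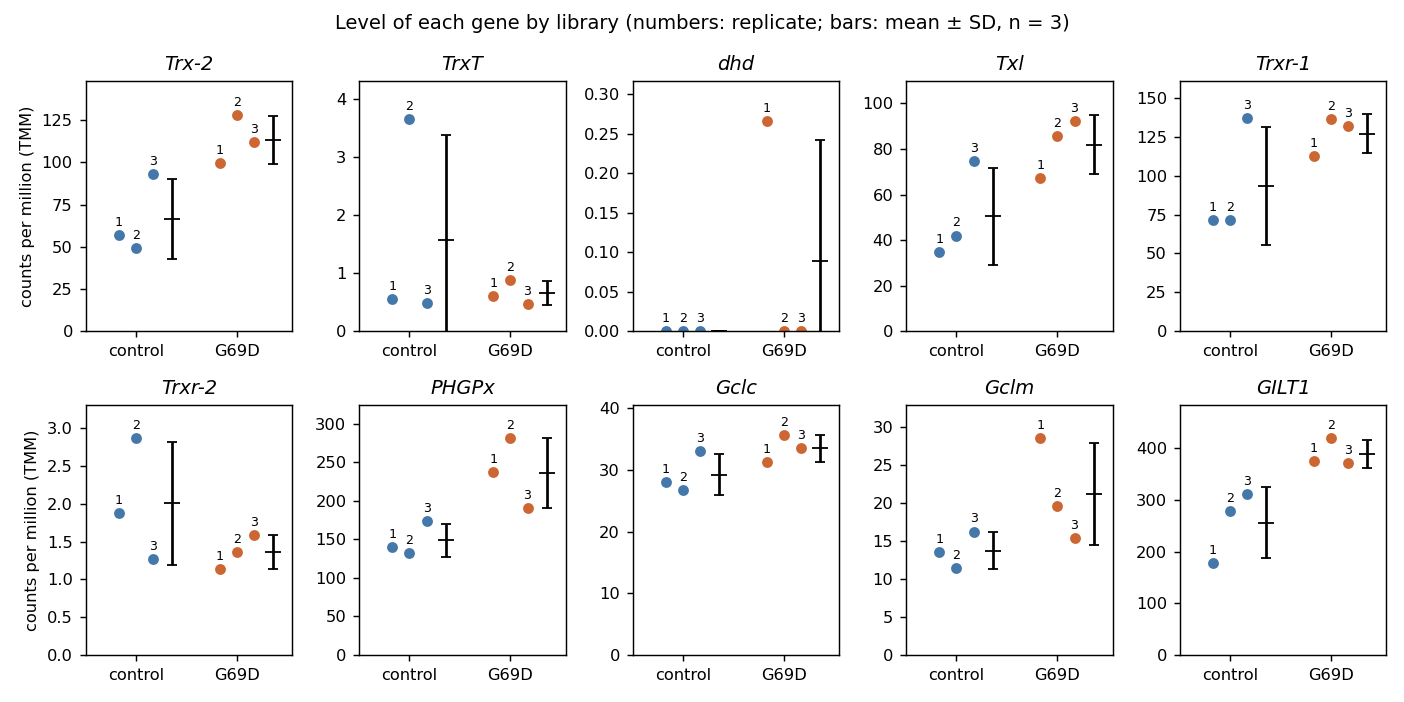
CPM of each gene in each library, on axes that start at 0 and differ in height between genes. Points are libraries with their replicate number, and bars give the mean ± SD (n = 3), drawn only above 0. *Trx-2*, *PHGPx* and *GILT1* have all GMR>Rh-1G69D points above all control points.

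*Trx-2* encodes the widely expressed thioredoxin of the fly (RefSeq symbol *Trx2*; dm6 2L, 9613166 to 9616404, plus strand, 2 annotated transcripts). Its level was 56.8, 49.3 and 93.1 in controls 1 to 3 and 99.5, 128 and 112 CPM in GMR>Rh-1G69D 1 to 3. The groups did not overlap, although control 3 came close to the lowest GMR>Rh-1G69D library. The mean was 66.4 ± 23.4 CPM (SD, n = 3) in controls and 113 ± 14.3 CPM in GMR>Rh-1G69D. The fitted difference was 0.77 on the log2 scale (SE 0.25), a fold of 1.70 with a 95% interval of 1.18 to 2.46, at an adjusted p of 0.0924. The unadjusted interval lay above 1, but the gene was not called after adjustment. Without control 3 the log2 difference was 1.10 at an adjusted edgeR p of 0.00406, and without control 2 it was 0.60 at 0.296. With DESeq2 it was 0.75 at an adjusted p of 0.0470. Across the 20 alternatives its adjusted p lay between 0.00406 and 0.526 and the difference between 0.49 and 1.11.

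*Txl* encodes a thioredoxin-like protein whose human homologue TXNL1 is found on the proteasome (3L, 5765846 to 5767084, plus strand). It had 34.7, 42.0 and 74.5 CPM in controls and 67.3, 85.6 and 92.4 CPM in GMR>Rh-1G69D. Control 3 exceeded GMR>Rh-1G69D 1, so the groups overlapped, while controls 1 and 2 lay below every GMR>Rh-1G69D library. The log2 difference was 0.70 (SE 0.28) at an adjusted edgeR p of 0.154. Without control 3 it was 1.09 at an adjusted p of 0.00667, and without control 2 it was 0.59 at 0.382. The adjusted p of the alternatives lay between 0.00667 and 0.547. The end of *Txl* overlaps *Ppat-Dpck* on the opposite strand by 68 exonic bases. That gene had 20 to 76 counts in any library against 682 to 2181 for *Txl*. No strand setting of the counting was found, so reads in such overlaps cannot be told apart.

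The germline thioredoxins *TrxT* and *dhd* lie side by side on the X chromosome, on opposite strands with 282 bases between them (*TrxT* at 5310581 to 5311888, *dhd* at 5312171 to 5313125). *TrxT* had 11, 121 and 14 counts in controls and 16, 20 and 11 in GMR>Rh-1G69D. Only control 2 was high. *betaTub85D* was high in the same library, with 901 counts against 16 to 71 elsewhere. The other 9 testis genes together were not higher there than in control 1. The 6 germline markers summed to 7.80 CPM in control 2 and were highest in GMR>Rh-1G69D 3, at 12.6 CPM. The part of these genes in the *TrxT* value was not tested. The fitted log2 difference of -1.27 (SE 0.92, edgeR adjusted p = 0.423) turned to 0.34 without control 2, at an adjusted p of 0.898 (range over all alternatives 0.252 to 0.985), so no direction can be given for *TrxT*. *dhd* had 0 counts in all libraries but GMR>Rh-1G69D 1, which had 7, or 0.266 CPM, and it was not tested. A count of 0 allows up to 3 counts, which is 0.0907 to 0.153 CPM in the control libraries, so a level under that could not have been seen. No fold is given for it.

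*Trxr-1* encodes the thioredoxin reductase on which both systems of the fly depend (RefSeq symbol *Trxr1*; X, 8242528 to 8248033, plus strand, 4 annotated transcripts). Its level was 71.4, 71.8 and 137 CPM in controls and 113, 136 and 132 CPM in GMR>Rh-1G69D. Controls 1 and 2 were alike and low, and control 3 was the highest of all 6 libraries. The log2 difference of 0.44 (SE 0.25) had an adjusted edgeR p of 0.305 and a 95% interval from -0.10 to 0.99. Without control 3 it was 0.83 at an adjusted p of 0.00887 (range over all alternatives 0.00887 to 0.787), so that single library decides whether *Trxr-1* is called. The log2 difference was 0.30 without control 2 and 0.29 without control 1, at adjusted edgeR p-values of 0.630 and 0.641. *Trxr-1* overlaps *sni* on the opposite strand by 435 exonic bases, and *sni* had 129 to 338 counts against 1403 to 4004 for *Trxr-1*. The length behind its FPKM, 2790 bases, was shorter than the 3147 exonic bases annotated here.

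*Trxr-2* (RefSeq symbol *Trxr2*; 3L, 22550226 to 22552019, plus strand) was scarce in both genotypes. It had 37, 95 and 37 counts in controls and 30, 31 and 37 in GMR>Rh-1G69D. Control 2 was again the high library. The log2 difference of -0.56 (SE 0.67) had an adjusted edgeR p of 0.641 and was -0.19 without control 2, and its 95% interval ran from -2.01 to 0.89.

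*PHGPx* (3L, 3326265 to 3328626, plus strand, inside an intron of *Strip* on the opposite strand with no exonic overlap) had the smallest p of the members. It measured 140, 133 and 173 CPM in controls and 238, 282 and 190 CPM in GMR>Rh-1G69D, without overlap. The log2 difference was 0.67 (SE 0.20), a fold of 1.59 with a 95% interval of 1.18 to 2.15, at an unadjusted p of 0.00569 and an adjusted edgeR p of 0.0763. In rank this was place 274 by p among the genes with a positive difference. DESeq2 gave an adjusted p of 0.0428, and edgeR without control 3 a log2 difference of 0.80 at an adjusted p of 0.0168. Without control 2 the edgeR difference was 0.60 at an adjusted p of 0.261. Its adjusted p lay between 0.0168 and 0.534 in the 20 alternatives. The host gene *Strip* had 861 to 1601 counts and a log2 difference of 0.14 (SE 0.20).

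*Gclc* (X, 8102181 to 8116147, minus strand, 4 annotated transcripts) was the steadiest member, at 28.0, 26.8 and 33.0 CPM in controls and 31.3, 35.8 and 33.5 CPM in GMR>Rh-1G69D. The groups overlapped, and the fold was 1.15 with a 95% interval of 0.82 to 1.6 (edgeR adjusted p = 0.621). A rise above 1.6-fold was therefore outside the interval of this fit for the catalytic subunit. With the gene length correction its log2 difference was 0.36 (edgeR adjusted p = 0.352), for which no interval is given. *Gclm* (3R, 22685006 to 22686510, minus strand), whose product raises the ligase's affinity for glutamate, had 13.5, 11.4 and 16.2 CPM in controls and 28.5, 19.6 and 15.4 CPM in GMR>Rh-1G69D. Library 1 of GMR>Rh-1G69D was far above the others while library 3 lay among the controls. The log2 difference of 0.63 (SE 0.31) had an adjusted edgeR p of 0.233, and it was not called under any of the 20 alternatives (adjusted p 0.101 to 0.732). Without GMR>Rh-1G69D 1 it was 0.37.

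*GILT1* (3R, 13398526 to 13401862, minus strand) had 179, 278 and 313 CPM in controls and 375, 421 and 373 CPM in GMR>Rh-1G69D. The GMR>Rh-1G69D libraries lay close together and above all controls, among which control 1 was low. The log2 difference was 0.60 (SE 0.22), a fold of 1.52 with a 95% interval of 1.09 to 2.11, at an adjusted edgeR p of 0.128. It was called only without control 3, at 0.77 and an adjusted p of 0.0253 (range over all alternatives 0.0253 to 0.470), and it was 0.40 without control 1. Its overlap with *CG14377* on the opposite strand covers 58 exonic bases, and that gene had 3 to 35 counts.

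**Figure D3:**
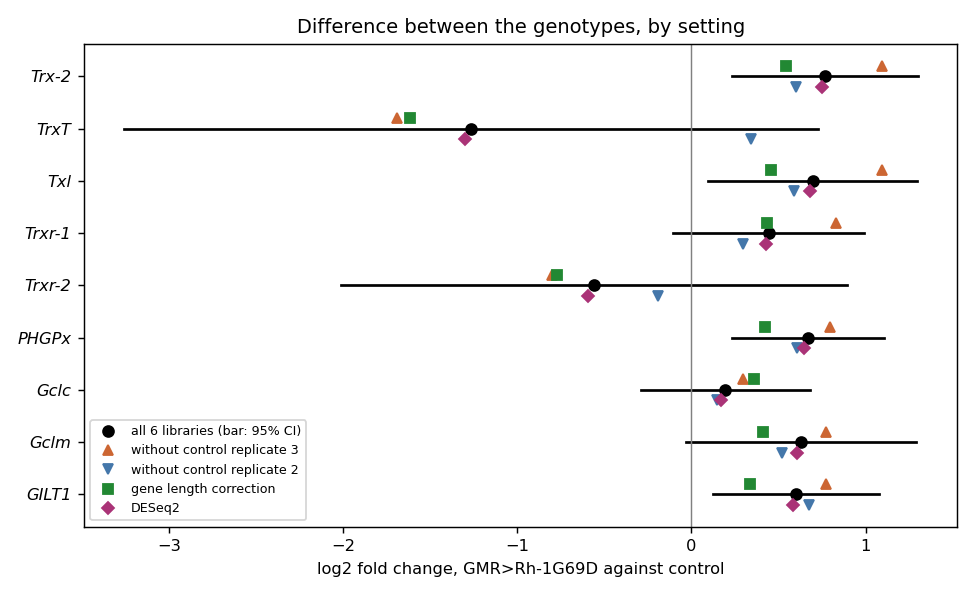
Fitted log2 fold change of GMR>Rh-1G69D against control for the 9 tested genes, with the 95% interval of the fit on all 6 libraries (black) and the point values of 4 other settings. Points right of 0 are higher in GMR>Rh-1G69D, *Trx-2*, *Txl* and *Trxr-1* move furthest right without control 3 (1.10, 1.09 and 0.83), and *TrxT* crosses 0 without control 2.

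Several of these calls depended on the control libraries. Control 3 was the highest control for all 7 members with a positive difference, where it was the highest control for 38.5% of all tested genes. In log2 CPM, *Trxr-1* in control 3 stood 0.37 above its own mean over the 6 libraries and *Txl* 0.26 above, while in controls 1 and 2 these genes stood 0.56 to 0.83 below. *Trxr-2* and *TrxT* had their highest level of all libraries in control 2, 0.67 and 1.61 above their means. A correction of each library for gene length lowered the log2 difference of *Trx-2* to 0.54, *Txl* to 0.45, *PHGPx* to 0.42, *Gclm* to 0.41 and *GILT1* to 0.34, raised that of *Gclc* to 0.36, and left *Trxr-1* at 0.43. All 7 remained above 0 and none was called under it. Among GMR>Rh-1G69D libraries, 5 of the 7 members with a positive difference (*Trx-2*, *Trxr-1*, *PHGPx*, *Gclc* and *GILT1*) were highest in library 2, *Gclm* in library 1 and *Txl* in library 3. The share of all tested genes that were highest in library 2 was not determined, so this count is not read as a trait of the members. The coefficient of variation of FPKM over GMR>Rh-1G69D libraries was at most 0.3 in 7 of the 9 tested members, against 65.4% of all tested genes. It exceeded 0.3 in *TrxT* and *Gclm*.

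**Figure D4:**
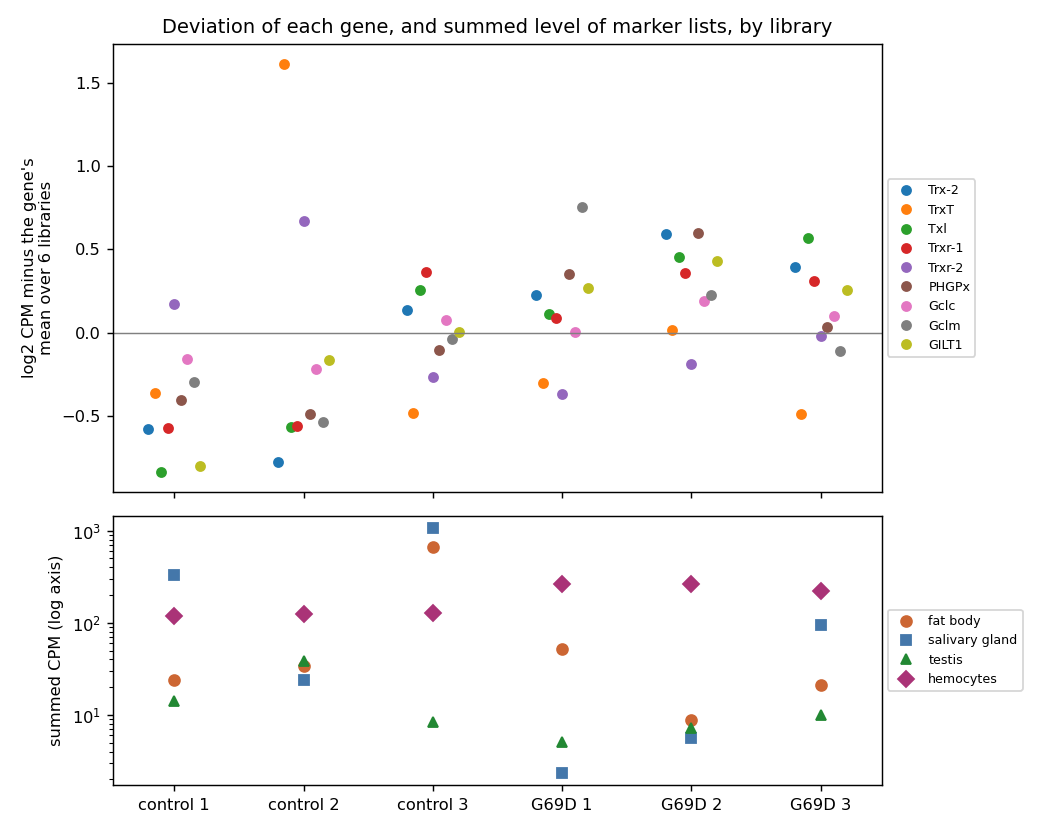
Upper panel: log2 CPM of each tested gene minus that gene's mean over the 6 libraries. Lower panel: summed CPM of 4 marker lists on a log axis, where control 3 has the highest fat body (667) and salivary gland (1063) sums and control 2 the highest testis sum (38.9, of which *betaTub85D* made up 27.2).

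Ratios of members within a library do not depend on how libraries were scaled, and 5 were compared by a two-sided exact permutation test, whose smallest possible p is 0.1 with 3 libraries against 3. *Trx-2* per length relative to its reductase *Trxr-1* was 1.64, 1.41 and 1.40 in controls and 1.81, 1.93 and 1.74 in GMR>Rh-1G69D. These were the only ratios of the 5 without overlap, and they were 1.24-fold higher on average (0.30 on the log2 scale) at an exact p of 0.1, or 0.5 adjusted over the 5 ratios. Without overlap, leaving out 1 library could not reverse the direction, and the log2 difference then lay between 0.27 and 0.38. These ratios carry no correction for gene length, and the 2 genes differ in length (1357 against 2790 bases). In the fits the log2 difference of *Trx-2* exceeded that of *Trxr-1* by 0.32, but by 0.11 after the length correction and by 0.07 with the replicate block as well.

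*Gclc* relative to *Gclm* was 0.71, 0.80 and 0.70 in controls and 0.38, 0.62 and 0.74 in GMR>Rh-1G69D, with an exact p of 0.3. The ratio was lowest in GMR>Rh-1G69D 1, where *Gclm* was highest, and the groups overlapped. *Trxr-1* relative to *Trxr-2* was 24.4, 16.1 and 69.6 in controls against 63.7, 64.6 and 53.3 in GMR>Rh-1G69D (exact p = 0.4), so *Trxr-1* was at least 16.1-fold above *Trxr-2* per length in every library. The ratios of *Trx-2* to *Txl* and of *PHGPx* to *Trx-2* differed by 0.05 and -0.15 on the log2 scale, with exact p-values of 0.9 and 0.5 and overlapping groups.

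The other genes of these pathways were listed in 6 groups of 36 genes in all, of which 29 had enough counts to test. None passed an adjusted edgeR p of 0.05 in either direction. At an unadjusted p under 0.05, 8 were higher and 0 lower, against 11.0% of all tested genes that were higher. Of the 29 differences 27 were above 0, against 52.5% of all tested genes, with a median of 0.51 against 0.04. DESeq2 called 3 of them higher (*Men*, *Jafrac1* and *CG6523*), against 3.87% of all genes. With edgeR, 0 were called without control 1 and 0 without control 2. Without control 3 it called 10 of them higher, against 10.7% of all genes. These 10 were *Men*, *Jafrac1*, *Jafrac2*, *Prx6005*, *RnrL*, *RnrS*, *CG6523*, *Eip55E*, *Cbs* and *GILT3*, of which *Jafrac2*, *Prx6005*, *RnrL* and *GILT3* were named after their values were seen. Per group, the median log2 difference was 0.82 for 3 glutaredoxins, 0.66 for 9 peroxiredoxins, methionine sulfoxide reductases and ribonucleotide reductase subunits, 0.47 for 4 other thioredoxins and GILT proteins, 0.37 for 4 NADPH suppliers, 0.31 for 6 genes of cysteine supply and glutathione turnover, and 0.02 for 3 Nrf2 regulators. With the gene length correction the median over all 29 was 0.31, and those of the lists were, in the same order, 0.63, 0.41, 0.26, 0.25, 0.30 and 0.08.

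Electrons for thioredoxin reductase come as NADPH. *Men*, the NADP-dependent malic enzyme, had 35.2 ± 15.0 CPM in controls and 70.2 ± 3.75 CPM in GMR>Rh-1G69D (SD, n = 3) without overlap, a log2 difference of 1.00 (SE 0.28) at an adjusted edgeR p of 0.0621. Without control 3 it was 1.39 at an adjusted p of 0.00293. *Pgd*, a dehydrogenase of the pentose phosphate pathway, differed by 0.47 (SE 0.32, adjusted p = 0.389). Among the proteins that thioredoxin reduces, *Jafrac1*, the cytosolic peroxiredoxin that RefSeq calls *Prx2*, had 130 ± 52.3 CPM in controls and 230 ± 18.2 CPM in GMR>Rh-1G69D without overlap, a log2 difference of 0.82 at an adjusted edgeR p of 0.0809, and of 1.19 at 0.00252 without control 3. In the same group of genes, *RnrS*, the small subunit of ribonucleotide reductase, differed by 0.77 (SE 0.26, adjusted p = 0.105), also without overlap. Without control 3 *RnrS* differed by 1.02 at an adjusted p of 0.0162. The large subunit *RnrL* differed by 0.73 (SE 0.25, adjusted p = 0.115), without overlap, and by 1.09 at an adjusted p of 0.00406 without control 3. The gene length correction gave 1.02 for *Men*, 0.31 for *Pgd*, 0.62 for *Jafrac1*, 0.58 for *RnrS* and 0.69 for *RnrL*.

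The glutaredoxin genes *CG6523* (RefSeq *Grx3*) and *CG14407* (*Grx5*) differed by 0.97 (SE 0.32, edgeR adjusted p = 0.101) and 0.82 (SE 0.31, adjusted p = 0.137), both without overlap. Without control 3 they differed by 1.49 and 0.99, with adjusted p-values of 0.00274 and 0.0515. Of cysteine supply, *Eip55E*, which encodes cystathionine gamma-lyase, differed by 0.73 (SE 0.30, adjusted p = 0.162) and *Cbs*, cystathionine beta-synthase, by 0.53 (SE 0.29, adjusted p = 0.281), with overlap in each. Without control 3 they differed by 1.18 and 0.87, with adjusted p-values of 0.00597 and 0.0392. *CG8993* and *GILT2* differed by 0.52 and 0.42 with adjusted p-values of 0.338 and 0.609, and by 0.86 and 0.82 without control 3, at 0.0631 and 0.252. *cnc*, the fly homologue of the antioxidant regulator Nrf2, had the smallest p of the regulators and a difference of -0.42 (SE 0.22, adjusted p = 0.260) that turned to 0.06 with the gene length correction, so no direction can be given for it. Without control 3 the difference of *cnc* was -0.56, lower than in the main fit. Its partner *maf-S* stood at 0.52 (SE 0.34, adjusted p = 0.371), and at 0.88 without control 3 (adjusted p = 0.0814). The gene length correction lowered *CG6523*, *CG14407*, *Eip55E* and *Cbs* to 0.77, 0.63, 0.54 and 0.44. It lowered *CG8993*, *GILT2* and *maf-S* to 0.35, 0.24 and 0.36.

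The step after glutamate-cysteine ligase could not be followed. Glutathione synthetase genes *GSS* (RefSeq *Gss1*) and *CG32495* (*Gss2*), neighbours on the X chromosome, had 0 to 5 and 2 to 9 counts per library and were not tested. Whether reads shared by these copies were left uncounted was not tested. *CG8517*, a thioredoxin gene, and *CG17636*, a gamma-glutamyl transferase gene, had 33 and 31 counts in control 2 and at most 1 in any other library (these 4 genes were named after their values were seen).

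**Figure D5:**
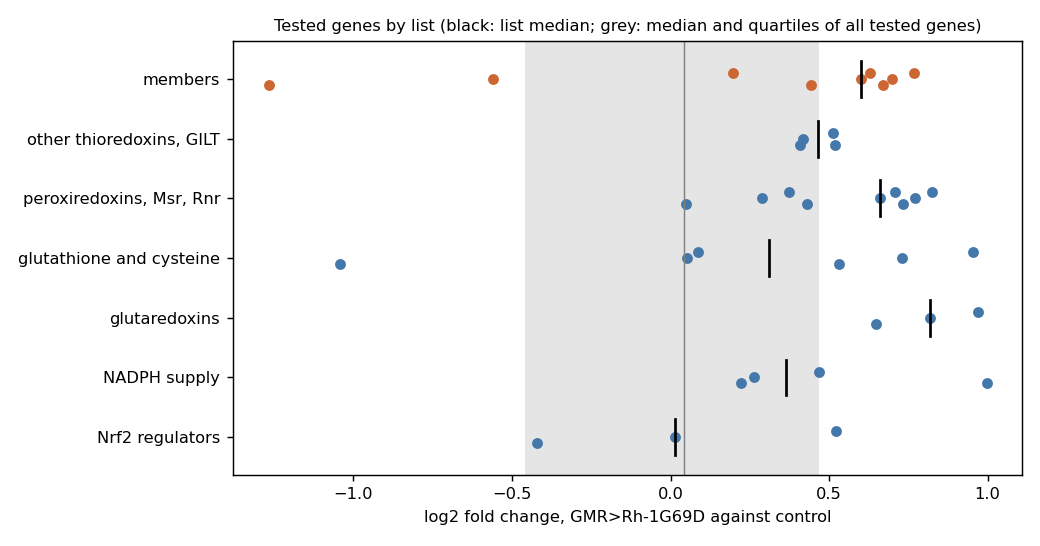
Fitted log2 fold change of each tested gene, by list, with 1 point per gene, the list median as a black line, and the median (0.04) and quartiles (-0.46 to 0.47) over all 11818 tested genes in grey. The medians of the members (0.60), the glutaredoxins (0.82) and the peroxiredoxin list (0.66) lie right of the grey band, and no point passed an adjusted edgeR p of 0.05.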

How the data were processed

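Per the labels, nuclei were pulled down by the EGFP tag and total RNA was sequenced after ribosomal RNA depletion. The authors' processing notes name bcl2fastq, STAR 2.6.1d, dm6, featureCounts of Subread 1.6.3 and DESeq2 in R 3.6.1, and the annotation release and strand setting are not given in the sources used here. The authors deposited raw counts per gene, normalized counts (a signal, the counts divided by 1 size factor per sample) and FPKM. Raw counts were fitted here in R 4.3.3 with edgeR 4.0.16 (filterByExpr, TMM, quasi-likelihood F test) over 11818 genes. Intervals are 95% intervals of the fitted difference between genotypes. The SE was taken as the size of the log2 difference divided by the square root of F. The spread between samples behind F was estimated with information shared across genes. Gene positions are from an Ensembl annotation of the dm6 assembly and symbols from RefSeq. Levels per length used the deposited FPKM. Ratios used counts divided by the length that counts and FPKM give. The code of the fit was tried on simulated data with larger differences than those of the members. That trial therefore does not show how the fit performs on them.

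All members were named, and of the other genes those with an adjusted p under 0.05 and the 2 with the smallest p per list. The members and lists were chosen with earlier results of these data known. Alternatives were RLE, DESeq2 1.42.0, no filter, a minimum of 10 counts per library, blocking by replicate number, correction for gene length (lowess, span 0.5), both of these, limma 3.58.1 on log2 of normalized counts + 1, FPKM + 1 and FPKM + 0.1, robust dispersion, an adjusted p under 0.01, and each library or same-numbered pair left out. Figures were drawn with matplotlib 3.10.9.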

Additional observations from a re-analysis of the deposited data

How the results depend on the processing

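The count of genes changed was 586, and it was 1438 with DESeq2, 181 at an adjusted p under 0.01, 36 and 145 with limma on log2 FPKM + 1 and + 0.1, and 83 to 2504 when libraries were left out, the highest without control 3. The count of members called was 0 and remained 0 in 18 of 21 alternatives. It was 2 with DESeq2, 5 without control 3 and 4 without both libraries numbered 3, and 0 to 5 over all left-out libraries. In those 3 settings, in the same order, 493 of 12750, 1305 of 12206 and 573 of 11987 tested genes were called higher. The median log2 difference of the members was 0.60, fell to 0.37 with the gene length correction and replicate block together and to 0.36 without both libraries numbered 1, and ranged from 0.36 to 0.81 over left-out libraries. It was above that of all genes under all 20 other fits. *TrxT* ranged from -1.69 to 0.34 and changed sign without control 2 (0.34) and without both libraries numbered 2 (0.06). The count of pathway genes called was 0, and it was 3 with DESeq2, 3 with the replicate block, and 1 (*Men*) with no filter, with at least 10 counts in every sample, with limma on normalized counts, with robust dispersion, and with the length correction and block together. Of all tested genes, 146 of 11818 were called higher in the main fit and 253 of 11818 with the replicate block. In the settings with 1 call, in the same order, 214 of 15522, 204 of 10234, 184 of 15522, 190 of 11818 and 173 of 11818 were called higher. The count of pathway genes called was 0 to 10 over left-out libraries, with 10 without control 3 and 5 without both libraries numbered 3. The cause of these differences was not tested. The replicate block gave 0 called members, with log2 differences of 0.82 for *Trx-2* and 0.66 for *PHGPx*. Same-numbered libraries deviated together with correlations of -0.00, 0.07 and 0.16, against -0.12 to 0.04 for libraries of different number. With so few libraries these correlations cannot decide whether the numbers pair the samples. As each library was a separate pool of discs, the numbers were not used as a block in the main fit. The log2 difference of the *Trx-2* to *Trxr-1* ratio ranged from 0.27 to 0.38 without each library, a direction that the lack of overlap fixed in advance. That of *Trx-2* to *Txl* ranged from -0.04 to 0.20, *Gclc* to *Gclm* from -0.61 to -0.11, *Trxr-1* to *Trxr-2* from 0.55 to 1.61, and *PHGPx* to *Trx-2* from -0.31 to -0.01. Counts were low for *TrxT*, *Trxr-2* and *dhd*, at most 121 in a library.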
